A study of Mus musculus with 20 samples.

Results

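The data described here concern 43 genes of mitosis in cultured mouse renal myofibroblasts with and without the ubiquitin ligase WWP2. The genes were chosen by what their products are known to do in cell division, with earlier results of these data already known. They are 43 of the 51826 genes in the count table, and all 43 passed the filter of at least 5 counts in at least 5 libraries that 20407 genes passed. By role, 6 belong to the cyclin and CDK1 switch, 6 are mitotic kinases and chromosomal passengers, 5 act in the spindle checkpoint and anaphase trigger, and 6 at centromeres and kinetochores. A further 5 are kinesin motors, 7 are spindle and microtubule associated proteins, 5 act in chromosome structure or on the chromosome surface, and 3 in cytokinesis and mitotic exit.

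The cells came from kidneys of WT and WWP2-/- mice (labelled KO), all C57BL/6J, and were untreated or treated with TGFβ1, with 5 libraries of poly-A RNA in each of the 4 groups. The WWP2-/- line, which WT littermates accompany, lacks the full-length and N-terminal isoforms of WWP2, so part of its Wwp2 RNA can remain. Cells were not sorted but grew out of minced kidney, so a culture can hold other cells of the organ. The labels give neither age nor sex of the mice, and leave the dose and duration of TGFβ1 to the study, which states them. They do not say whether libraries come from separate mice, although the study's methods state in general that a data point is a mouse or cells of a mouse, so the P values measure the spread between these libraries. WWP2 is an E3 ubiquitin ligase, which attaches ubiquitin to other proteins, and TGFβ1 is the cytokine that drives fibroblasts towards the contractile, matrix-producing myofibroblast. The comparisons ask whether the mitosis genes differ between the genotypes without and with TGFβ1, whether TGFβ1 moves them in each genotype, and whether the genotype effect depends on TGFβ1.

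Entry into mitosis is set off by the kinase CDK1 bound to cyclin A or B, whose activity the CDC25 phosphatases release. Aurora and Polo-like kinases then build the spindle, kinetochores fasten chromosomes to its microtubules, and the spindle checkpoint holds back the anaphase-promoting complex until every chromosome is attached. CDC20 and UBE2C then start the destruction of cyclin B, and anillin and the RhoA activator ECT2 divide the cell. Most of these genes are transcribed together in G2 and M phase, so their mRNA level in a culture depends on the share of cells in these phases. In bulk RNA, fewer cells of a type cannot be told apart from less RNA per cell.

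Totals ranged from 47520759 to 73063697 counts per library. Levels are given as CPM, counts scaled to a common library size after TMM correction for composition in edgeR, and fold changes as log2. Wwp2 itself was at 49.99 to 59.8 CPM in untreated WT, 50.8 to 58.4 in treated WT, 18.5 to 22.7 in untreated WWP2-/- and 17.03 to 21.1 in treated WWP2-/- libraries, so every library was on the side its genotype label gives. Between the genotypes the log2 fold change of Wwp2 was −1.37 untreated and −1.49 with TGFβ1 (adjusted P = 4.32e-08 and 1.05e-08, edgeR). On TGFβ1 it was 0.011 in WT and −0.11 in WWP2-/- cells, so Wwp2 does not check the treatment label. Libraries also differed in other traits, some of them unevenly between the genotypes. Acta2, the smooth muscle actin that defines myofibroblasts, was at 38.9 CPM in untreated WWP2-/- replicate 3 and 50.4 CPM in treated WWP2-/- replicate 1, and at 1016 CPM or more in the other 18 libraries. These 2 libraries, called Acta2-low here, were thus far below the rest in the defining marker of the labelled cell type, and they were also lowest in the sum of 8 myofibroblast markers. Xist, the RNA of the inactive X chromosome, was above 1 CPM in 11 libraries, of which 5 also held Y-linked transcripts (the sum of 4 genes), and 9 libraries held only the latter. Among untreated libraries Xist was present in 4 of 5 WT (not replicate 4) and 2 of 5 WWP2-/- (replicates 1 and 3), and among treated libraries in 4 of 5 WT (not replicate 3) and 1 of 5 WWP2-/- (replicate 1). The summed level of 12 macrophage markers ranged from 161 to 4011 CPM in untreated WT, 92.5 to 1819 in untreated WWP2-/-, 81.3 to 454 in treated WT and 89.9 to 3582 in treated WWP2-/- libraries, and 7 of the 12 were at 1 CPM or more in every library. The 10 fibroblast markers summed to 4649 to 20971, 4293 to 10338, 10673 to 33959 and 5271 to 13208 CPM in the same order. Tubular epithelial markers summed to at most 914 CPM, with Umod, Cdh1, Slc34a1, Aqp2 and Krt8 at 0 in some libraries. The part of these differences in the results was not tested beyond the values given beside them.

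Most promoters of the members hold sequence elements that are known from G2 and M phase genes, the cell cycle homology region (TTTGAA or TTTAAA) that the DREAM and MuvB complexes recognise and the CCAAT box that NF-Y binds. RefSeq entries (GRCm38.p6) were found for 35 of the 43 members, with 37 promoters that span 250 bases before to 50 after the start of transcription. No entry was matched for Ccna2, Cdc25c, Aurkb, Tpx2, Kif20a, Dlgap5, Smc4 and Cdca2. On either strand, TTTGAA stood in 27 of the 37 promoters (73%), against 17.9% of all 32851 promoters in the table, and TTTAAA, which reads the same on both strands, in 11 (29.7%, against 13.2%). Either of them stood in 32 (86.5%, against 27.6%), CCAAT in 29 (78.4%, against 37.4%), and at least 2 CCAAT in 20 (54.1%, against 11.7%). A promoter with CCAAT together with TTTGAA or TTTAAA was found in 27 (73%, against 10.7%). The motifs are short, and a match in this window describes the letters only.

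The promoters of 9 members are shown from 250 bases before to 30 after the start, 5′ to 3′ on the strand of the gene, with every match of these motifs in capitals, those on the other strand included, where a CCAAT reads ATTGG. The first 6 are core members, of which 5 varied closely with the other members (r above 0.9, described next) and Cdk1 less so (r = 0.84), namely Ccnb1 (chr13:100786457-100786736 on the minus strand), Cdk1 (chr10:69352883-69353162 on the minus strand), Plk1 (chr7:122159185-122159464 on the plus strand), Cdc20 (chr4:118437314-118437593 on the minus strand), Kif11 (chr19:37376132-37376411 on the plus strand) and Top2a (chr11:99024160-99024439 on the minus strand). The last 3 are Nuf2 (chr1:169531435-169531714 on the minus strand), which varied with the rest but holds none of the motifs here, Cdc25b (chr2:131186698-131186977 on the plus strand), which followed the rest only in part, and Gtse1 (chr15:85859457-85859736 on the plus strand, its first listed start), which did not follow them.
Ccnb1: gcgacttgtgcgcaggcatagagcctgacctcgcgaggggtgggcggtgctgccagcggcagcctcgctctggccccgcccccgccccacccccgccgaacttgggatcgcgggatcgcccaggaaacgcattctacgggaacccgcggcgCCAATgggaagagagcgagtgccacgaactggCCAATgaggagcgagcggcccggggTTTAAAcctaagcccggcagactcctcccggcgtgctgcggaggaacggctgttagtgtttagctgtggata
Cdk1: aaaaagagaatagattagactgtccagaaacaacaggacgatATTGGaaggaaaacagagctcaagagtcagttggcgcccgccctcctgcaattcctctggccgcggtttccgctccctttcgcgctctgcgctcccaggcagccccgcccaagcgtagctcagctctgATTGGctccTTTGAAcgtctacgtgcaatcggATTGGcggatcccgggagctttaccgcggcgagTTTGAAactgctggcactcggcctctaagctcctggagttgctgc
Plk1: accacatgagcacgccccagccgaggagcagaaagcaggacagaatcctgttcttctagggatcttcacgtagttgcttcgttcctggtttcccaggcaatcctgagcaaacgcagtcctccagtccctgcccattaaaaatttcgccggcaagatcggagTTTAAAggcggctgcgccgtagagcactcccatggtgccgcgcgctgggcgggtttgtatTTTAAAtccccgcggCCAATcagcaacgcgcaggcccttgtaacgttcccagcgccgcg
Cdc20: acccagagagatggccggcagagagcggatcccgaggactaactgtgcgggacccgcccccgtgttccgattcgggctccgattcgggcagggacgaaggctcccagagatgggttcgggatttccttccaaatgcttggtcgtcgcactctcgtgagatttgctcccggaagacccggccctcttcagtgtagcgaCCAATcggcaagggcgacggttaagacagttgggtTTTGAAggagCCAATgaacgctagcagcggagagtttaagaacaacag
Kif11: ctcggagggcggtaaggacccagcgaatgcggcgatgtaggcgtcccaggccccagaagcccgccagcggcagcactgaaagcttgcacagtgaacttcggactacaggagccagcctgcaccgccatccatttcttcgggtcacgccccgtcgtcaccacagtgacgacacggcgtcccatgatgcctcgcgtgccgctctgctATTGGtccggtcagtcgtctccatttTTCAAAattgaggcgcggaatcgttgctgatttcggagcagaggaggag
Top2a: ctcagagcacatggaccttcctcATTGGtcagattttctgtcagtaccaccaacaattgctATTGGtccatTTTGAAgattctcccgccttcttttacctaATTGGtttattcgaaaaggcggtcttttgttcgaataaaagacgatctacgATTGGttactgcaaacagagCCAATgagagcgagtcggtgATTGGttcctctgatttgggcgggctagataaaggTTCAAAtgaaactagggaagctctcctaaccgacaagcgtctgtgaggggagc
Nuf2: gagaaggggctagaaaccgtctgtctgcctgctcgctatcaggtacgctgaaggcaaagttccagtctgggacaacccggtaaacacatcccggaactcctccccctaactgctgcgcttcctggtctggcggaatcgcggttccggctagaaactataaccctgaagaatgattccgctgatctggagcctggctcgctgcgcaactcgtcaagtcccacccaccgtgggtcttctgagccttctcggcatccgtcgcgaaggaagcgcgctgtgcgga
Cdc25b: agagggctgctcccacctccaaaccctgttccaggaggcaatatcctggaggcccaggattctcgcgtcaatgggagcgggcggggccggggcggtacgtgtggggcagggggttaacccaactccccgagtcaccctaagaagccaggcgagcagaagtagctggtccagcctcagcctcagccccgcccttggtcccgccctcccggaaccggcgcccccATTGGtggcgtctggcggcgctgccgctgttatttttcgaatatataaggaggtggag
Gtse1: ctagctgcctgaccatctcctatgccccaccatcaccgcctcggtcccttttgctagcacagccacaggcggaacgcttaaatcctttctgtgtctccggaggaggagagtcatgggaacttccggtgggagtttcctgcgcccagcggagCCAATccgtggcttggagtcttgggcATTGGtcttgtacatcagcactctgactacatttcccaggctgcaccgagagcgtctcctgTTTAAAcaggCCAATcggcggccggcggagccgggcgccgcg
In Cdc20 a CCAAT begins 53 bases and a TTTGAA 18 bases before the start, in Kif11 they begin 45 and 19 bases before it, and Top2a holds 6 CCAAT with a TTTGAA 23 bases before the start. Gtse1 holds TTTAAA and 3 CCAAT although its level did not follow the other members, and Nuf2 holds neither although its level did.

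The members varied together from library to library. Across the 20 libraries, the log2 level of 34 of the 43 members correlated at r above 0.9 with the mean of the other members, and 34 did so after the mean of each group was removed, so the shared movement is also present within groups. The median r over the 903 pairs of members was 0.93, and 0.927 with group means removed. These are descriptions over libraries that share their scaling, and the members therefore do not count as separate observations of a group difference. The 9 members at or below 0.9 were Smc2, Ckap2, Cdk1, Bub1b, Spc25, Anln, Smc4, Cdc25b and Gtse1. Gtse1, a microtubule-binding protein that restrains p53 in G2, was at r = −0.092 and between 38.9 and 79.0 CPM in all libraries. Cdc25b, a phosphatase that activates CDK1, was at r = 0.54 and between 3.69 and 8.80 CPM.

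**Figure D1:**
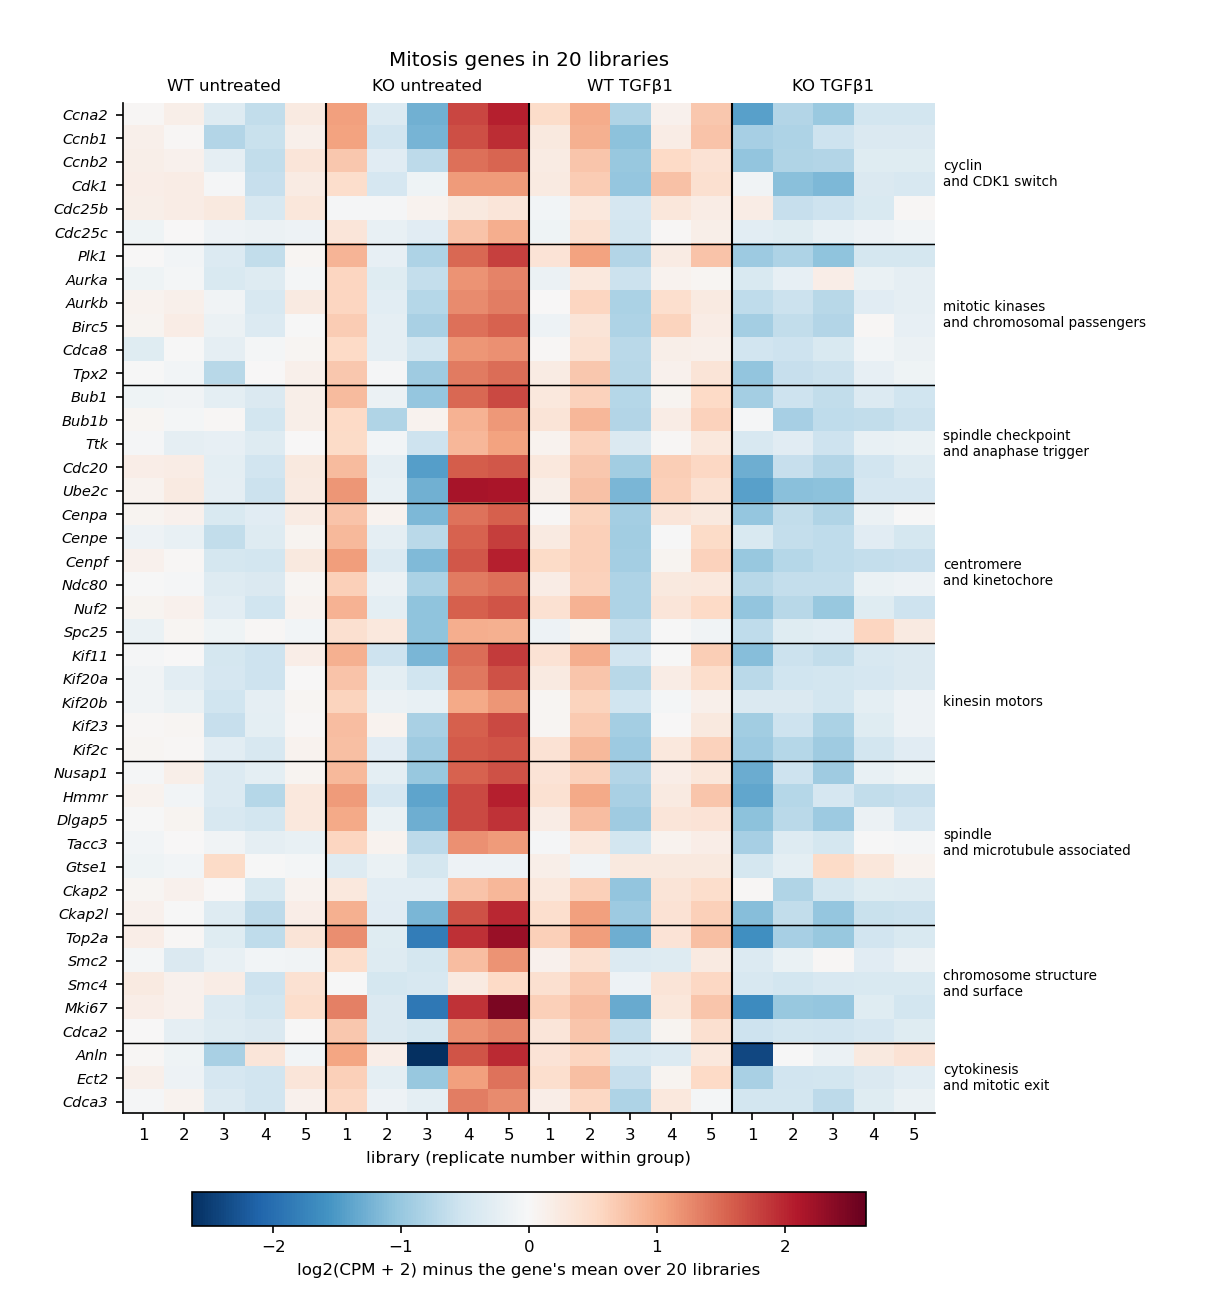
Level of the 43 mitosis genes in the 20 libraries, as log2(CPM + 2) minus the mean of the gene, with genes in rows by role and libraries in columns by group and replicate. Untreated WWP2-/- replicates 4 and 5 are high and replicate 3 is low for most genes, treated WT replicate 3 is low, and the row of Gtse1 stays near its mean.

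Per kilobase of exon, which allows genes to be set beside each other, the members spanned from 0.130 CPM per kb for Cdc25c to 21.01 for Gtse1 in untreated WT cells. Next to Gtse1 came the condensin subunit Smc4 at 7.63, Ckap2 at 5.25, Cdc20 at 3.86 and Cdk1 at 2.77 CPM per kb, and the lower end held Ndc80 at 0.303, Ttk at 0.206 and Cenpf at 0.163 CPM per kb. The counts behind the low members were small in places, and the lowest was 2 counts, for Cdc25c in treated WT replicate 3. The span of a gene over the libraries differed widely, from 2.03-fold for Gtse1 and 2.39-fold for Cdc25b to 113-fold for Anln and 125-fold for Cenpf. Exon bases of 12 members are shared with another gene, which lies on the opposite strand for all but Top2a, and Kif20a shares 1271 of its 4338 with Cdc23. The strand setting of the counting is not given in the sources used here, so reads of such pairs cannot be told apart.

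The average level of the members in a library, as the mean of log2(CPM + 2) over the 43 genes, gives the order of the groups. It was 2.98, 2.96, 2.67, 2.57 and 3.08 in untreated WT replicates 1 to 5, and 3.66, 2.73, 2.10, 4.27 and 4.44 in untreated WWP2-/-. With TGFβ1 it was 3.18, 3.61, 2.21, 3.17 and 3.36 in WT, and 2.14, 2.36, 2.34, 2.67 and 2.69 in WWP2-/-. The untreated WWP2-/- libraries lay both above and below all untreated WT libraries, with replicates 1, 4 and 5 above and the Acta2-low replicate 3 below. The treated WWP2-/- libraries lay close together and below 4 of the 5 treated WT libraries, with WT replicate 3 inside their range. As group means the levels were 3.44±1.01 (SD, n = 5) in untreated WWP2-/-, 3.11±0.53 in treated WT, 2.85±0.22 in untreated WT and 2.44±0.24 in treated WWP2-/- cells, and neighbours in this order differed by less than the larger of their SDs, except treated WWP2-/- from untreated WT.

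**Figure D2:**
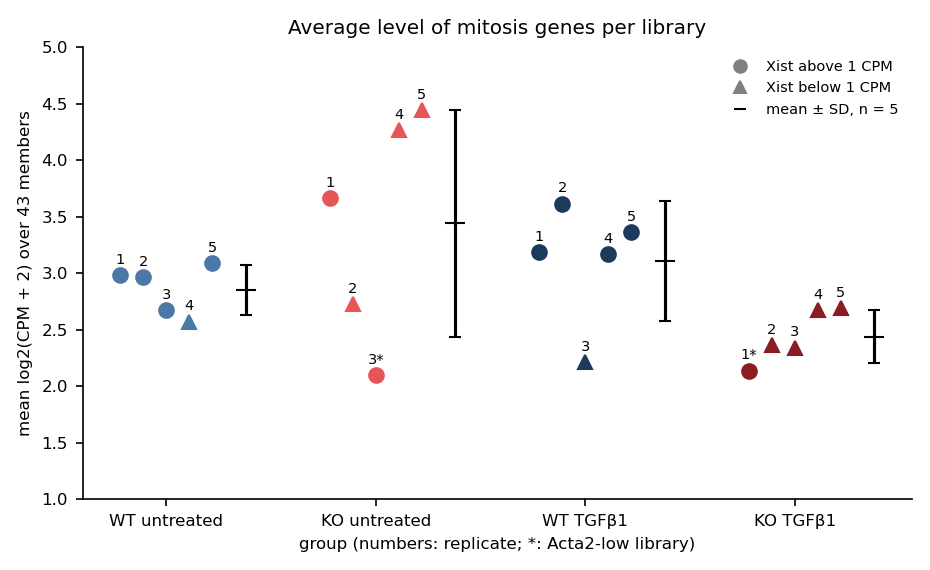
Mean of log2(CPM + 2) over the 43 members for each library by group, with circles for libraries with Xist above 1 CPM, triangles for those below, and bars for the mean ± SD (n = 5). The SD is 1.01 in untreated WWP2-/- cells and 0.24 in treated WWP2-/- cells, and treated WT replicate 3, the WT library there without Xist, is at 2.21.

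Between WWP2-/- and WT cells without TGFβ1, 41 of the 43 members had a positive log2 fold change, with a median of 1.35 against 0.076 over all 20407 genes tested, and none passed an adjusted P of 0.05 in edgeR's quasi-likelihood test. Over all genes 0.725% passed. At an unadjusted P of 0.05, 25 members were higher in WWP2-/- cells, against 8.08% of all genes. The Wald test of DESeq2 called 1 member, Kif20a, against 3.64% of all genes. No member was higher in all WWP2-/- than in all WT libraries, against 1.50% of all genes. Gtse1 was lower in all of them, at 38.9 to 49.8 CPM against 50.3 to 79.0 CPM, against 1.29% of all genes, with a log2 fold change of −0.33 (SE 0.17, adjusted P = 0.361), and the other 42 members overlapped. The smallest P values belonged to the kinesin Kif20a, which carries the passenger complex to the midzone of the spindle, at 1.37 (SE 0.41, adjusted P = 0.135), the kinesin Kif20b at 1.07 (SE 0.34, adjusted P = 0.153), and the kinetochore motor Cenpe at 1.55 (SE 0.50, adjusted P = 0.169). Without the 2 Acta2-low libraries, an alternative chosen after the data were seen, 3 members passed, Kif20a at 1.59 (adjusted P = 0.0488, edgeR), Anln at 1.58 (adjusted P = 0.0396, edgeR) and the spindle protein Tacc3 at 1.07 (adjusted P = 0.0396, edgeR), against 1.34% of all genes in that fit, and the median was 1.59. Without replicate 5 of the WWP2-/- libraries, the highest, the median was 0.92. In the same comparison 8 of 10 fibroblast markers were negative (median −1.39, 0 called in edgeR, 4 at an unadjusted P of 0.05 against 1396 of all 20407 genes lower, 2 by DESeq2). So were 11 of 12 macrophage markers (median −0.84, 0 called, 0 at an unadjusted P of 0.05, 0 by DESeq2). Of 8 endothelial markers 5 were positive and 3 negative (median 0.71), and 1 was called lower in edgeR. Of 8 myofibroblast markers 7 were positive (median 0.70, 0 called in edgeR). At an unadjusted P of 0.05, 1 of these was higher and 1 lower, and DESeq2 called 1 lower. The part of all these markers in the result was not tested.

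With TGFβ1 the sign was the opposite. In treated cells 42 of the 43 members had a negative log2 fold change between WWP2-/- and WT, with a median of −1.12 against 0.050 over all genes. Smc4 alone among the members passed the threshold and was lower in WWP2-/- cells, against 6.07% of all genes that passed in either direction. At an unadjusted P of 0.05, 24 members were lower, against 11.7% of all genes, and DESeq2 called 9 (Ccna2, Plk1, Bub1b, Cenpf, Nuf2, Kif2c, Ckap2l, Smc4 and Cdca2, all lower), against 13.1%. Smc4 was also the member whose treated libraries did not overlap, against 3.08% of all genes with every WWP2-/- library lower. The next smallest P values were those of the Polo-like kinase Plk1 at −2.003 (SE 0.61, adjusted P = 0.0568) and the spindle protein Ckap2l at −2.15 (SE 0.73, adjusted P = 0.0819). How many passed depended on which library was left out. Leaving out WT replicate 3 gave 12 calls, where 13.4% of all genes passed, against 2 without WWP2-/- replicate 1 (Bub1b and Smc4), where 10.3% of all genes passed. It was 0 without WT replicate 2, where 2.23% of all genes passed, and 0 without WT replicate 5, where 2.42% passed. Without the 2 Acta2-low libraries it was 8, where 17.2% of all genes passed, and the median was −1.04. Markers of other cells differed in the same comparison. All 12 macrophage markers were positive (median 2.56, 0 called in edgeR, 12 at an unadjusted P of 0.05, 11 called by DESeq2). So were all 10 tested tubular markers (median 1.59, 0 called in edgeR, 1 at an unadjusted P of 0.05, 1 by DESeq2). At that P 2654 of all 20407 genes were higher. Fibroblast markers were negative in 9 of 10 (median −2.12, 2 called lower in edgeR). Of 8 endothelial markers 6 were positive and 2 negative (median 0.60), and 2 were called lower in edgeR. Of 8 myofibroblast markers 5 were negative and 3 positive (median −0.095), and 1 was called lower. Their part in the result was not tested.

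**Figure D3:**
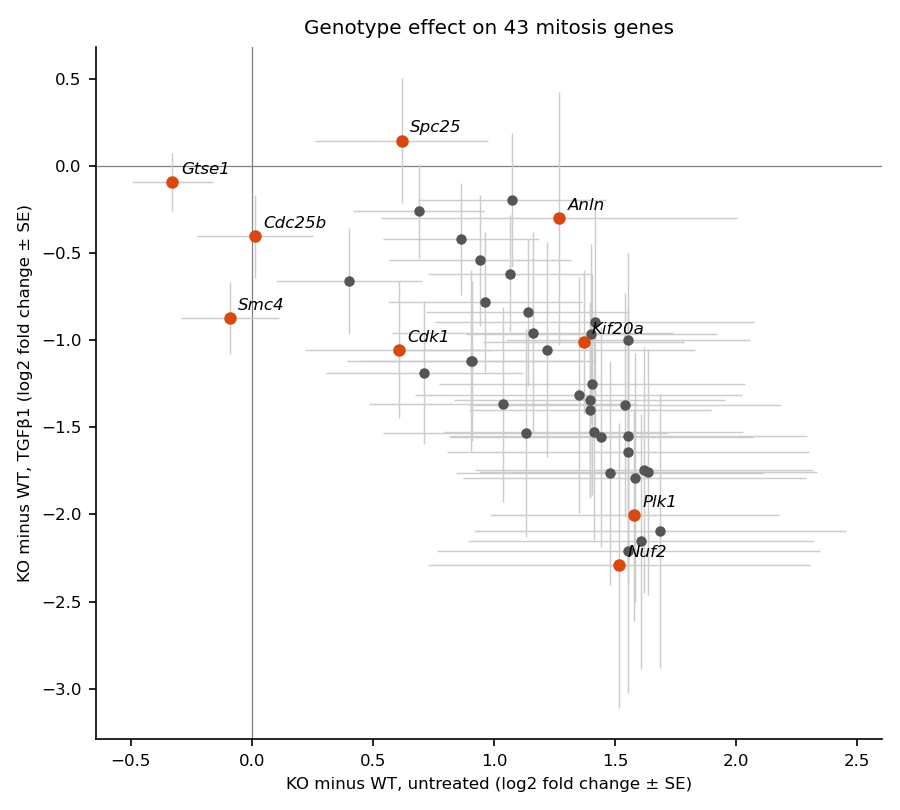
Log2 fold change between WWP2-/- and WT for each of the 43 members, untreated on the horizontal and TGFβ1-treated on the vertical axis, with bars for the standard error. Most members lie at lower right, positive untreated (median 1.35) and negative with TGFβ1 (median −1.12), with Gtse1, Smc4, Cdc25b and Spc25 apart from them.

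Genotypes can be set beside each other within libraries alike in Xist only as a description, since 1 of the sides is a single library in 3 of the 4 classes, and the values do not show that the genotype effect depends on Xist. Among treated libraries with Xist, the average level of the members was 2.14 in the 1 WWP2-/- library, which is Acta2-low, and 3.33 in the mean of 4 WT libraries, and 42 members were lower in WWP2-/-. Among treated libraries without Xist, it was 2.51 in the mean of 4 WWP2-/- libraries and 2.21 in the 1 WT library, and 41 members were higher in WWP2-/-. Among untreated libraries with Xist, the means were 2.88 over 2 WWP2-/- and 2.92 over 4 WT libraries, with 26 members lower and 17 higher. These 2 WWP2-/- libraries were unlike each other. Replicate 1, which also held Y-linked transcripts, was at 3.66, and replicate 3, which is Acta2-low and held none, was at 2.10. Among those without Xist, the means were 3.81 over 3 WWP2-/- libraries and 2.57 in the 1 WT library, with 42 members higher. With the log2 level of Xist as a covariate in edgeR, the medians were 1.12 untreated and −1.42 with TGFβ1, and no member passed, Smc4 included (log2 fold change −0.73, adjusted P = 0.0802, edgeR). With so few libraries, genotype and the sex of the treated cells cannot be told apart.

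In WT cells TGFβ1 left 41 of 43 members with a positive log2 fold change of small size, with a median of 0.45 against 0.016 over all genes. No member passed in edgeR, none was higher at an unadjusted P of 0.05 (against 2.66% of all genes), and none passed in DESeq2 (against 0.132%). No gene of all tested passed in edgeR (0%). The smallest P values among members were those of Kif20a at 0.66 (SE 0.41, adjusted P = 0.853), Plk1 at 0.93 (SE 0.59, adjusted P = 0.860) and Cdca2 at 0.77 (SE 0.49, adjusted P = 0.864). No member was higher in all treated WT libraries than in all untreated ones, against 0.588% of all genes. Macrophage markers had negative values in the same comparison (12 of 12, median −2.43), with 0 called in edgeR, 11 at an unadjusted P of 0.05 and 0 called by DESeq2. So did tubular markers (10 of 10, median −2.15), with 0 called in edgeR, 3 at an unadjusted P of 0.05 and 0 called by DESeq2. At that P 854 of all 20407 genes were lower.

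In WWP2-/- cells TGFβ1 went with negative log2 fold changes for 42 of 43 members, with a median of −1.96 against 0.0010 over all genes. In edgeR no member and no other gene passed (0%), whereas 39 members were lower at an unadjusted P of 0.05, against 2.45% of all genes. DESeq2 called 17 members, all lower, against 0.291% of the genes to which it gave an adjusted P. Of the 49 genes it called, 17 were thus members. The smallest P values were those of Plk1 at −2.65 (SE 0.62, adjusted P = 0.603), Kif20a at −1.72 (SE 0.42, adjusted P = 0.603) and the ubiquitin-conjugating enzyme Ube2c at −2.98 (SE 0.73, adjusted P = 0.603). No member was lower in every treated than in every untreated WWP2-/- library, against 0.211% of all genes. In Plk1, for example, untreated replicate 3 at 1.23 CPM lay inside the range of the treated libraries. Without untreated WWP2-/- replicate 3, the Acta2-low library, 19 members passed in edgeR, of 63 genes in all (0.310%), among them Plk1 at −2.94 (adjusted P = 0.0475) and Mki67 at −3.04 (adjusted P = 0.0475). Without both Acta2-low libraries 0 passed in edgeR, as did no gene at all, and the median was −2.13. In the same comparison, with all libraries, macrophage markers (12 of 12, median 0.89) and endothelial markers (8 of 8, median 0.65) were positive. Of 8 myofibroblast markers 5 were negative (median −0.39), as were 7 of 10 fibroblast markers (median −0.025) and 6 of 10 tubular markers (median −0.049). In these lists 0 were called in edgeR or DESeq2, and their part in the result was not tested.

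The interaction, the genotype effect with TGFβ1 minus that without, was negative for 42 of 43 members, with a median of −2.38 against −0.018 over all genes. None passed in edgeR, as no gene did (0%), 39 had a negative value at an unadjusted P of 0.05, against 3.33% of all genes, and DESeq2 called Plk1 (adjusted P = 0.0333), against 0.0490%. The members with the smallest P were Plk1 at −3.58 (SE 0.85, adjusted P = 0.511), Kif20a at −2.38 (SE 0.58, adjusted P = 0.511) and Cdca2, a phosphatase targeting subunit on chromosomes, at −2.796 (SE 0.71, adjusted P = 0.511). The sign of the genotype effect thus turned between untreated and treated cells for most members, while the difference between these effects passed in edgeR for none. In 20 libraries of the 4 groups, leaving out each in turn gave medians between −2.64 and −1.99 and 0 calls. Macrophage markers had positive values in the interaction (12 of 12, median 3.46, 0 called in edgeR, 11 at an unadjusted P of 0.05, 0 by DESeq2). So did tubular markers (10 of 10, median 1.16, 0 called, 0 at an unadjusted P of 0.05, 0 by DESeq2). At that P 745 of all 20407 genes had a positive value, and the part of the markers in the result was not tested.

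**Figure D4:**
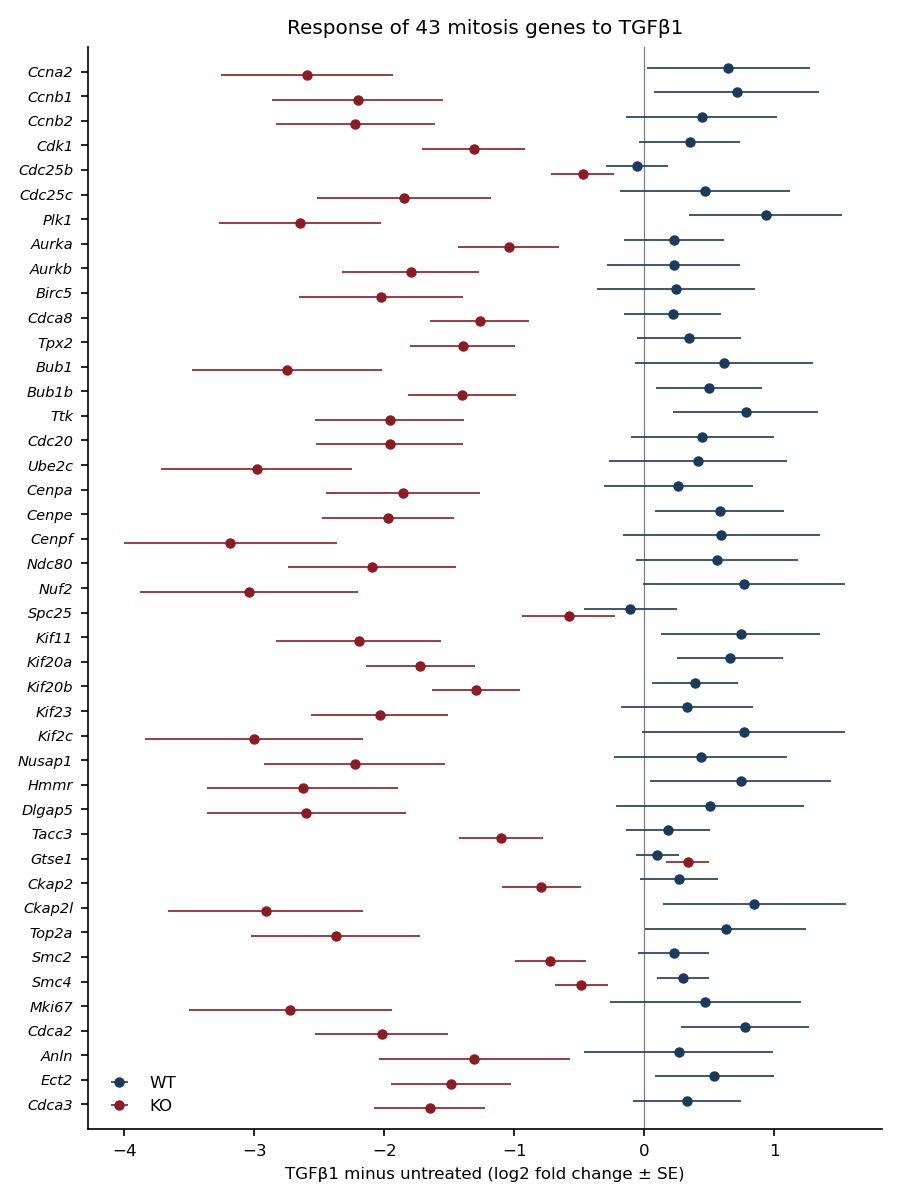
Log2 fold change between TGFβ1-treated and untreated cells for each member in WT (upper point of each row) and WWP2-/- (lower point), with bars for the standard error, and members in rows by role. The WT values lie near or slightly above 0 (median 0.45), and the WWP2-/- values mostly well below 0 (median −1.96).

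Of the cyclin and CDK1 switch, Ccnb1 encodes cyclin B1, the partner of CDK1. It was at 5.74, 5.22, 2.17, 2.75 and 5.80 CPM in untreated WT replicates 1 to 5 and 12.8, 2.999, 1.03, 21.03 and 25.2 CPM in untreated WWP2-/- libraries, where replicates 1, 4 and 5 lay above all WT values. With TGFβ1 it was at 6.45, 11.6, 1.38, 6.10 and 9.96 CPM in WT and 1.87, 2.01, 2.89, 3.47 and 3.45 CPM in WWP2-/- libraries. The treated groups overlapped through WT replicate 3. The log2 fold change between the genotypes was 1.54 (SE 0.64, adjusted P = 0.279) untreated and −1.37 (SE 0.64, adjusted P = 0.195) with TGFβ1 in edgeR. Cdk1, the kinase itself, was at 19.3, 9.27, 12.2, 31.5 and 31.7 CPM in untreated and 12.5, 5.14, 4.82, 9.86 and 9.46 CPM in treated WWP2-/- libraries. In contrast to Ccnb1, it was not low in the Acta2-low libraries (12.2 and 12.5 CPM). Its genotype effect was 0.61 (SE 0.39, adjusted P = 0.475) untreated and −1.06 (SE 0.39, adjusted P = 0.109) with TGFβ1, and its response to TGFβ1 was −1.31 (SE 0.39, adjusted P = 0.633) in WWP2-/- cells. Ccna2 and Ccnb2, the other cyclins of the list, had r of 0.99 and 0.98 with the other members, Cdc25c was at most 3.47 CPM, and the genotype effect of Cdc25b was near 0 in untreated cells (log2 fold change 0.011).

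Among the kinases and passengers, Plk1, which promotes mitotic entry and centrosome maturation, had the smallest interaction P of the members. It was at 3.70, 3.39, 2.39, 1.60 and 3.84 CPM in untreated WT and 8.52, 2.86, 1.23, 14.2 and 17.8 CPM in untreated WWP2-/- libraries. With TGFβ1 it was at 5.26, 9.78, 1.32, 4.59 and 7.58 CPM in WT and 0.910, 1.25, 0.706, 2.12 and 2.12 CPM in WWP2-/- libraries. Every treated WWP2-/- library was below 4 of the 5 treated WT libraries, and WT replicate 3 lay among them. The untreated genotype effect was 1.58 (SE 0.60, adjusted P = 0.237). Aurkb, the kinase of the passenger complex that corrects faulty attachments, was at 3.39±0.899 CPM (SD, n = 5) in untreated WT, 6.36±4.72 CPM in untreated WWP2-/-, 3.97±1.93 CPM in treated WT and 1.83±0.598 CPM in treated WWP2-/- cells. Its genotype effects were 0.91 (SE 0.51, adjusted P = 0.415) untreated and −1.12 (SE 0.52, adjusted P = 0.190) with TGFβ1. Over the 6 genes of this role the median genotype effect was 1.02 untreated and −0.92 with TGFβ1, and Aurora A (Aurka) had the value nearest 0 with TGFβ1 (−0.19).

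In the spindle checkpoint and anaphase trigger, Cdc20 activates the anaphase-promoting complex. It was at 8.44, 8.50, 5.66, 4.52 and 8.98 CPM in untreated WT and 14.4, 5.87, 1.39, 25.7 and 26.7 CPM in untreated WWP2-/- libraries. With TGFβ1 it was at 9.26, 12.98, 2.87, 12.5 and 11.5 CPM in WT and 1.79, 4.06, 3.41, 4.53 and 5.26 CPM in WWP2-/- libraries. Untreated replicates 1, 4 and 5 of WWP2-/- were again the highest, and the treated groups overlapped through WT replicate 3 alone. Its genotype effect was 1.04 (SE 0.55, adjusted P = 0.385) untreated and −1.37 (SE 0.56, adjusted P = 0.140) with TGFβ1. Bub1b, which encodes the checkpoint protein BUBR1, was at 6.80 and 6.10 CPM in the Acta2-low libraries and at 2.78 CPM in untreated WWP2-/- replicate 2, so these libraries were ordered otherwise than for Bub1, at 0.18 and 0.37 CPM in the Acta2-low libraries. All 5 genes of this role were lower in treated WWP2-/- cells at an unadjusted P of 0.05, against 11.7% of all genes, with a median of −1.37. None of the 5 passed an adjusted P of 0.05 in edgeR, and members do not count as separate observations.

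At the kinetochore, Ndc80 encodes the microtubule-binding subunit of the complex of that name, with Nuf2 and Spc25 as further subunits. Ndc80 was at 1.96±0.547 CPM (SD, n = 5) in untreated WT, 5.21±4.20 CPM in untreated WWP2-/-, 2.90±1.51 CPM in treated WT and 1.22±0.639 CPM in treated WWP2-/- cells, with genotype effects of 1.41 (SE 0.63, adjusted P = 0.313) and −1.25 (SE 0.63, adjusted P = 0.230). Nuf2 had the lowest treated genotype effect of all members (−2.29), and Spc25 the highest (0.15). In Spc25 treated WWP2-/- replicates 4 and 5, at 13.2 and 10.1 CPM, were above every treated WT library, whereas Nuf2 there was at 1.60 and 1.10 CPM. The 3 subunits had r of 0.99 for Ndc80 and Nuf2 and 0.79 for Spc25 with the other members. Spc25, Nuf2, Bub1, Bub1b, Aurka, Ckap2, Nusap1, Gtse1, Cdc25b, Cdc25c, Smc2 and Ect2 were singled out after their values were seen.

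Kif11, the motor that pushes the spindle poles apart, was at 4.10, 4.29, 2.54, 2.30 and 5.03 CPM in untreated WT and 9.87, 2.30, 0.725, 15.3 and 20.4 CPM in untreated WWP2-/- libraries. Treated WT libraries held 6.13, 10.04, 2.39, 4.22 and 7.76 CPM and treated WWP2-/- libraries 0.876, 2.23, 1.997, 2.66 and 2.83 CPM. As for Cdc20, WT replicate 3 was the treated WT library inside the range of WWP2-/-. Its genotype effect was 1.41 (SE 0.62, adjusted P = 0.299) untreated and −1.53 (SE 0.62, adjusted P = 0.138) with TGFβ1. Of the motors, Kif20a was at 13.00, 5.53, 4.27, 21.4 and 26.8 CPM in untreated and 3.45, 4.21, 4.38, 4.55 and 4.91 CPM in treated WWP2-/- libraries, and its lowest value in any library was 3.41 CPM. Dlgap5, which stabilises the fibres that pull on kinetochores, had genotype effects of 1.56 (SE 0.74, adjusted P = 0.334) untreated and −1.55 (SE 0.74, adjusted P = 0.204) with TGFβ1, with levels of 1.94 to 4.66 CPM in untreated WT and 0.242 to 18.5 CPM in untreated WWP2-/- libraries. Ckap2, a spindle microtubule protein, was at 13.7 and 17.6 CPM in the Acta2-low libraries, where Nusap1 was at 0.74 and 0.22 CPM. Gtse1 had genotype effects of −0.33 untreated and −0.095 with TGFβ1.

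Among the genes of chromosome structure, Smc4, a core subunit of both condensins, was the member that passed the threshold. With TGFβ1 it was at 49.8, 60.1, 33.2, 46.8 and 54.6 CPM in WT and 26.7, 25.6, 26.8, 27.4 and 27.05 CPM in WWP2-/- libraries. The WWP2-/- values lay within a narrow range, and the nearest WT library was replicate 3, the treated WT library without Xist. The log2 fold change was −0.87 (SE 0.20, adjusted P = 0.0194). Untreated it was at 43.7, 39.5, 42.5, 24.3 and 48.7 CPM in WT and 36.4, 26.03, 26.8, 43.7 and 53.7 CPM in WWP2-/- libraries, which overlapped. The untreated log2 fold change was −0.091 (SE 0.20, adjusted P = 0.856), and its interaction was −0.78 (SE 0.29, adjusted P = 0.549). The other condensin core subunit, Smc2, had −0.26 with TGFβ1 and 0.69 untreated.

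Top2a, the topoisomerase that untangles sister chromatids, was at 15.96, 14.2, 10.7, 8.03 and 18.1 CPM in untreated WT and 34.99, 10.8, 2.52, 58.4 and 75.4 CPM in untreated WWP2-/- libraries. With TGFβ1 it was at 22.6, 32.2, 4.57, 18.3 and 25.6 CPM in WT and 3.22, 6.63, 5.97, 9.16 and 10.1 CPM in WWP2-/- libraries. Untreated WWP2-/- replicates 3 and 5 held the lowest and the highest value of all 20 libraries. The genotype effect was 1.44 (SE 0.63, adjusted P = 0.298) untreated and −1.56 (SE 0.63, adjusted P = 0.137) with TGFβ1. Mki67, the Ki-67 protein that coats mitotic chromosomes and is widely used as a marker of dividing cells, was at 21.9, 5.30, 0.604, 33.6 and 51.3 CPM in untreated and 1.03, 2.78, 2.74, 5.66 and 4.86 CPM in treated WWP2-/- libraries. In WT libraries it was at 4.84 to 11.1 CPM untreated and 1.84 to 14.8 CPM with TGFβ1. Its genotype effect was 1.55 (SE 0.75, adjusted P = 0.338) untreated and −1.64 (SE 0.75, adjusted P = 0.186) with TGFβ1, and its response to TGFβ1 was 0.47 (SE 0.73, adjusted P = 0.961) in WT and −2.72 (SE 0.78, adjusted P = 0.631) in WWP2-/- cells.

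In cytokinesis, Anln (anillin), which organises the contractile ring, had its lowest values in the Acta2-low libraries. It was at 30.4, 15.6, 0.523, 47.2 and 59.1 CPM in untreated and 0.994, 13.5, 11.98, 16.8 and 18.5 CPM in treated WWP2-/- libraries, and at 6.62 to 17.5 CPM in untreated and 9.70 to 21.2 CPM in treated WT libraries. The 2 Acta2-low libraries were at 0.52 and 0.99 CPM, and the lowest of the others was at 6.62 CPM. In the other 4 treated WWP2-/- libraries Anln, at 12.0 to 18.5 CPM, lay within the range of the treated WT libraries. Its genotype effect was 1.27 (SE 0.74, adjusted P = 0.425) untreated and −0.30 (SE 0.73, adjusted P = 0.844) with TGFβ1. Ect2, which activates RhoA at the midzone, had 0.91 untreated and −1.12 with TGFβ1.

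**Figure D5:**
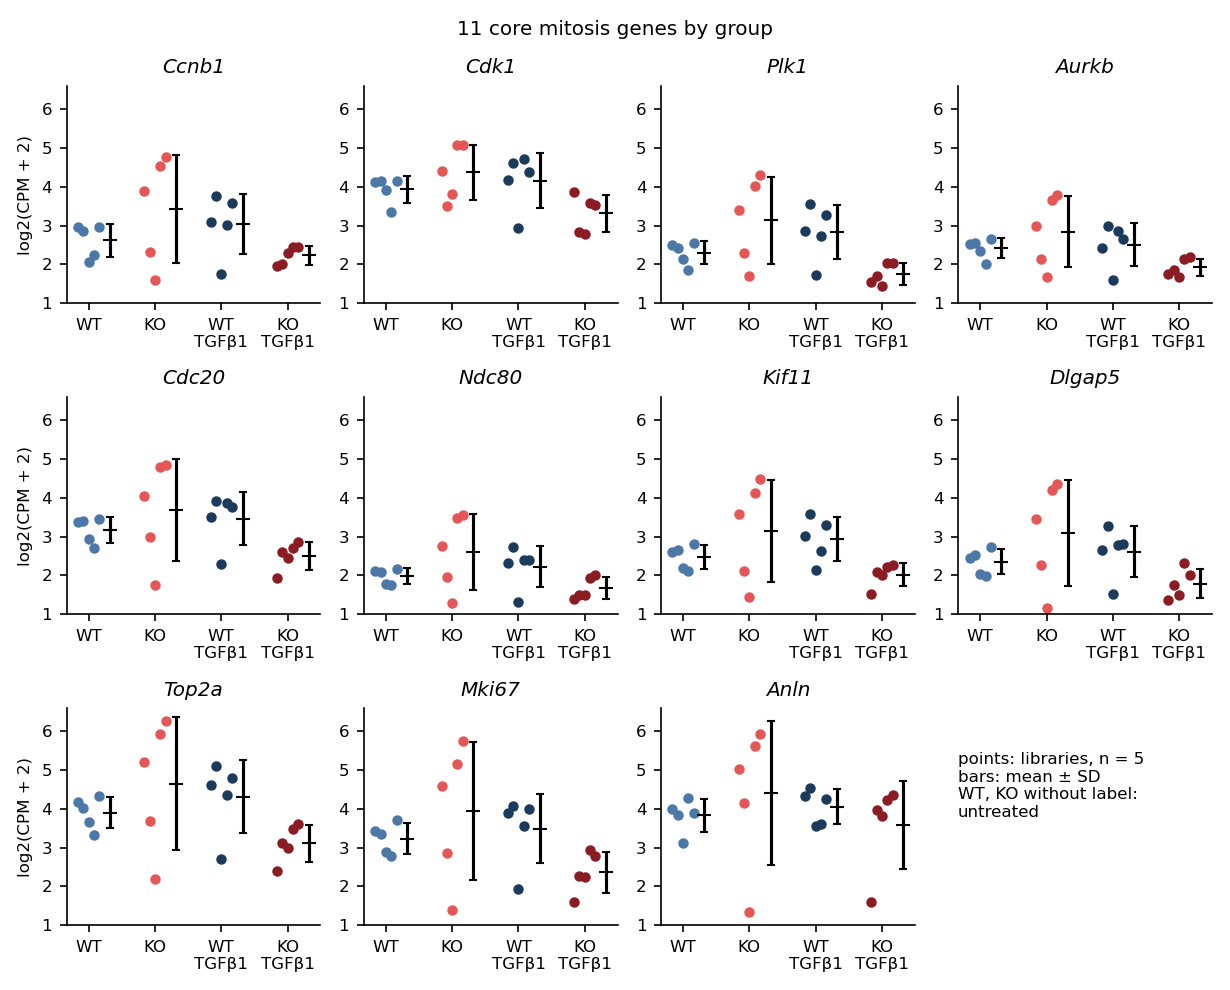
Levels of the 11 core members as log2(CPM + 2), 1 panel per gene, with a point for each library and bars for the mean ± SD (n = 5). Untreated WWP2-/- libraries spread widely, and Anln is at 0.52 and 0.99 CPM in 1 library of each WWP2-/- group.

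The genes most like the members, by the correlation of their log2 CPM with the mean over members across 20 libraries among 13477 other genes, were Kif4 (r = 0.993), Pimreg (0.991), Prc1 (0.99), Cenpi (0.989), Shcbp1 (0.989), Pclaf (0.987), Pbk (0.986), Prr11 (0.986), Knstrn (0.985) and Racgap1 (0.984). A wider list of 90 tested genes of mitosis (further kinetochore, condensin, motor and cytokinesis genes) is given beside them, with no test of the difference. In untreated cells 85 of the 90 were positive between WWP2-/- and WT (median 0.73, 0 called in edgeR). At an unadjusted P of 0.05, 47 were higher, against 8.08% of all genes, and DESeq2 called 5, against 3.64%. With TGFβ1 71 were negative and 19 positive (median −0.51). At an unadjusted P of 0.05, 33 were lower, against 11.7% of all genes, and 1 was higher. DESeq2 called 16, against 13.1% of all genes. In edgeR 3 were called, against 6.07% of all genes, all lower in WWP2-/-, namely Tuba1b at −1.02 (adjusted P = 0.0133, edgeR), Ncaph2 at −0.33 (0.0462) and Trim59 at −0.99 (0.0480). In WWP2-/- cells 87 were negative on TGFβ1 (median −0.94), and the interaction was negative for 85 (median −1.14), with 0 called in edgeR in either. At an unadjusted P of 0.05, 63 and 54 were negative, against 2.45% and 3.33% of all genes. DESeq2 called 14 and 0, against 0.291% and 0.0490%. The 4 with the smallest interaction P were Lmnb1 (lamin B1) at −1.11 (SE 0.27, adjusted P = 0.511), the kinesin Kif22 at −1.22 (SE 0.30, adjusted P = 0.511), the condensin subunit Ncapg at −2.74 (SE 0.70, adjusted P = 0.511) and the abscission protein Cep55 at −2.56 (SE 0.66, adjusted P = 0.511).

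Of 24 regulators of mitotic transcription, none was called in edgeR in any of the 5 comparisons (0 to 5 at an unadjusted P of 0.05 and 0 or 1 called by DESeq2), and their median was 0.21 untreated and −0.067 with TGFβ1 between the genotypes. At an unadjusted P of 0.05, 5 were higher in untreated WWP2-/- cells, against 8.08% of all genes, and 5 were negative in the interaction, against 3.33%. The regulators with the smallest interaction P are themselves cell cycle regulated. E2f7, a repressing E2F, was at −3.13 (SE 0.89, adjusted P = 0.511), Mybl2 (B-MYB) at −1.52 (SE 0.47, adjusted P = 0.524), Foxm1 at −1.46 (SE 0.46, adjusted P = 0.530) and E2f8 at −2.19 (SE 0.87, adjusted P = 0.605). Foxm1, the activator of the G2 and M phase programme, had genotype effects of 0.98 untreated and −0.48 with TGFβ1. Subunits of the anaphase-promoting complex with the kinases that inhibit CDK1, 20 genes, had medians of −0.066 untreated and −0.22 with TGFβ1. In this list the inhibitor of the complex Fbxo5 had an interaction of −1.62 (SE 0.41, adjusted P = 0.511), its activator Fzr1 −0.37 (SE 0.10, adjusted P = 0.511), and the kinases Pkmyt1 and Wee1 −0.96 and −0.37. The replicative helicase and clamp list of 20 S phase genes had medians of 0.42 untreated and −0.26 with TGFβ1, and an interaction median of −0.56, with Cdc6 at −2.08 (SE 0.61, adjusted P = 0.511), Mcm6 at −0.91, Mcm5 at −1.90 and Mcm4 at −0.70. No gene of the last 2 lists was called in edgeR in any comparison, with 1 to 7 and 0 to 11 at an unadjusted P of 0.05 and 0 to 4 and 0 or 1 called by DESeq2. The 7 were lower in treated WWP2-/- than in treated WT cells, against 11.7% of all genes. The 11 S phase genes were lower with TGFβ1 in WWP2-/- cells, against 2.45% of all genes. In the interaction 7 S phase genes were negative at that P, against 3.33%.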

How the data were processed

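RNA from 20 cultures of renal myofibroblasts was sequenced as paired-end poly-A libraries. According to the study's methods, the authors used STAR for alignment to GRCm38 and featureCounts for exon counting, and deposited raw counts per gene. Versions and the strand setting are not given in the sources used here. Depth was 47520759 to 73063697 counts per library, and group means carry the spread over 5 libraries.

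A gene entered the tests when 5 or more libraries each held 5 or more counts for it. The 4 groups were fitted in 1 model with edgeR 4.0.16 (R 4.3.3; TMM factors, quasi-likelihood F test, Benjamini-Hochberg over all genes tested, threshold 0.05). The procedure was run beforehand on simulated counts in which genes varied independently, unlike the members here. CPM used TMM library sizes, and levels were averaged as log2(CPM + 2). Gene models came from GENCODE M21 and promoters from RefSeq. The members and lists were chosen with earlier results of these data known. Named were 11 core members, the 3 members with the smallest P in each comparison, 4 genes per other list by interaction P, and the 10 genes most like the members, and other members named by level were chosen after their values were seen. Alternatives were DESeq2 1.42.0 (size factors, Wald test), no filter or at least 10 counts in every library, Xist as a covariate, only the groups compared, a replicate block, and each library left out.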

Additional observations from a re-analysis of the deposited data

How the results depend on the processing

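The median log2 fold change of the members kept its sign in each of the 5 comparisons in every alternative fit, Xist as a covariate included. It moved by less than the spread between replicates, an SD within groups of 0.592. For TGFβ1 in WT the median itself, 0.45, is smaller than this spread, so there this measure cannot show stability. Within libraries alike in Xist, which is a description and no fit, the mean level of untreated libraries with Xist hardly differed between genotypes (−0.044). In treated libraries without Xist it was higher in WWP2-/- (0.302, against 1 WT library). Both differences are below the within-group SD of this level, 0.592. With each library left out, the median log2 fold change was 0.92 to 1.58 between the genotypes untreated and −1.39 to −0.98 with TGFβ1. It ranged from 0.24 to 0.71 for TGFβ1 in WT, from −2.25 to −1.60 for TGFβ1 in WWP2-/-, and from −2.64 to −1.99 for the interaction. The number of members called was less stable. DESeq2 called 1, 9, 0, 17 and 1 members in this order, against 0, 1, 0, 0 and 0 in edgeR. With Xist as a covariate the counts were 0 throughout, so the call of Smc4 with TGFβ1 was lost, as it was without WT replicate 2 (adjusted P = 0.0646, edgeR) and without WT replicate 5 (adjusted P = 0.0544, edgeR). Without the 2 Acta2-low libraries, chosen after seeing the data, the counts were 3, 8, 0, 0 and 0. With each library left out, between 0 and 12 members were called for the genotypes with TGFβ1, between 0 and 19 for TGFβ1 in WWP2-/-, and 0 in the other 3. Apart from libraries left out, the cause of these changes was not tested. For the 66 results on single named members, each set against every alternative and every library left out, 1277 comparisons stayed on the same side of the threshold, 25 gained a call, 3 lost it (all Smc4), and none changed sign.

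The labels number the libraries 1 to 5 in each group but do not say what the numbers mark, so no pairing was assumed. Correlations between so few libraries cannot settle whether any of them share a mouse. Over all genes tested, same-numbered libraries correlated between −0.53 and 0.52 in their deviations from the group means. Between the untreated groups 4 of 5 correlated best with their own number, but 1, 0 and 1 of 5 in the other 3 pairs of groups. With a replicate block the counts were 0, 1, 0, 0 and 0 and the medians 0.96, −1.05, 0.28, −1.66 and −2.01. The requirement of at least 10 counts in every library left 39 members, and a fit of only the groups compared cannot be made for the interaction, which needs all 4. Depth limits the lowest members, of which Cdc25c had 2 counts in 1 library.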
